A study of Homo sapiens with 10 samples.

Results

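Transcripts of 8 members of the tumour necrosis factor (TNF) receptor system of B cells were followed in 2 human lymphoma lines, OCI-LY10 and TMD8, which are models of the activated B-cell-like subtype of diffuse large B-cell lymphoma. The members were chosen by symbol, 7 receptors (TNFRSF13B, TNFRSF13C, TNFRSF17, CD40, CD27, TNFRSF8 and FAS) and the ligand CD70, and all 8 were found among the 25275 symbols of each table. RNA-seq was available as FPKM, which scales fragments to gene length and library size. In OCI-LY10 there was 1 library with STAT3 shRNA 10, 1 with STAT3 shRNA 16 and 1 labelled control shRNA, all exposed to 20 ng/ml of doxycycline over 2 days, which switched on the shRNA and which the control shared. TMD8 had 3 libraries from the same 3 shRNAs under the same doxycycline exposure, but their columns carry no names, so they are given by position and none was assigned to a shRNA. Both are established human lines, and no shRNA had a second library in either line. Another 4 samples, STAT3 ChIP-seq of the same lines after 4 h of the JAK inhibitor AZD1480 or of DMSO, were not analysed here.

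TNF receptor family proteins sense ligands of the TNF family, usually as trimers, and pass the signal to TRAF adaptor proteins and NF-kB or, through a death domain, to caspases. In B cells, BAFF and APRIL act through TNFRSF13C (the BAFF receptor), TNFRSF13B (TACI) and TNFRSF17 (BCMA), which support the survival of mature B cells and of plasma cells. CD40 receives help from T cells, CD27 marks memory B cells and binds CD70, TNFRSF8 (CD30) marks activated lymphocytes, and FAS triggers apoptosis.

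STAT3, the target of the shRNAs, stood at 11.1 FPKM under shRNA 10 and 10.6 under shRNA 16, against 16.5 in the library labelled control (log2 change −0.56, SE 0.10, limma adjusted p = 0.0465, lost in 2 of 7 alternative settings with a range of 0.0293 to 0.0688). The unnamed TMD8 columns 1, 2 and 3 held 120.3, 24.3 and 22.5 FPKM of STAT3. The libraries did not group by line. Over 11911 genes, with small RNA genes left out, the Pearson correlation of log2(FPKM + 1) values was 0.994 between the OCI-LY10 libraries of shRNA 10 and shRNA 16. It was 0.861 between either of them and the library labelled control, which correlated at 0.944 to 0.966 with the TMD8 columns. The shRNA libraries correlated at 0.820 to 0.836 with those columns, so both of them lay apart from the other 4 libraries, and which OCI-LY10 libraries are typical of the line cannot be told from these values. Genes are not independent replicates, so these correlations are descriptions with no p. Every difference from the control below lies across that gap, and a change caused by STAT3 depletion cannot be told apart from any other difference between these libraries.

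All 6 B-cell markers examined (such as MS4A1 and PAX5) were at 1 FPKM or more in all 6 libraries. Their summed level was 2363 to 2620 FPKM with the STAT3 shRNAs, 832 in the library labelled control and 800.0 to 955 in the TMD8 columns. All 7 T-cell markers and all 6 myeloid markers were below 1 FPKM in every library, with summed levels of 0.266 to 0.338 and 0.619 to 0.98 FPKM under the STAT3 shRNAs, against 0.711 and 1.60 FPKM in the control. Among 4 NK-cell markers, 3 were below 1 FPKM throughout, and their sum was 1.29 to 1.97 FPKM with the STAT3 shRNAs and 0.157 in the control. All 3 erythroid markers were below 1 FPKM as well, while epithelial markers summed to 5.48 to 5.98 FPKM with the STAT3 shRNAs, 34.8 in the control and 19.3 to 20.7 in TMD8. Where such marker sums move with a member below, their part in it was not tested. Stromal markers summed to 5.64 to 6.18, 4.89 and 3.94 to 5.63 FPKM in the same order of libraries. In bulk libraries, fewer cells carrying a transcript and less of it per cell cannot be told apart.

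In OCI-LY10, TNFRSF13B and TNFRSF17 rose with the STAT3 shRNAs relative to the library labelled control, and CD27 fell. TNFRSF13C and CD70 had lower values with both shRNAs but did not pass the test, and CD40 and FAS did not pass either. TNFRSF8 was too low to be tested. Of the 7 members with a mean of at least 1 FPKM, 2 were therefore called higher, where the share over all 11162 tested genes was 20.3%, and 1 was called lower, against 17.4% of tested genes. The median log2 change of the 7 members was −0.11, beside 0.06 for all tested genes. The calls come from limma on log2(FPKM + 1), with p-values adjusted over all tested genes and a threshold of 0.05. The test treats the 2 STAT3 shRNAs as replicates and assumes that the unreplicated control varies as they do, so its p-values measure only the spread between those shRNA libraries.

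**Figure D1:**
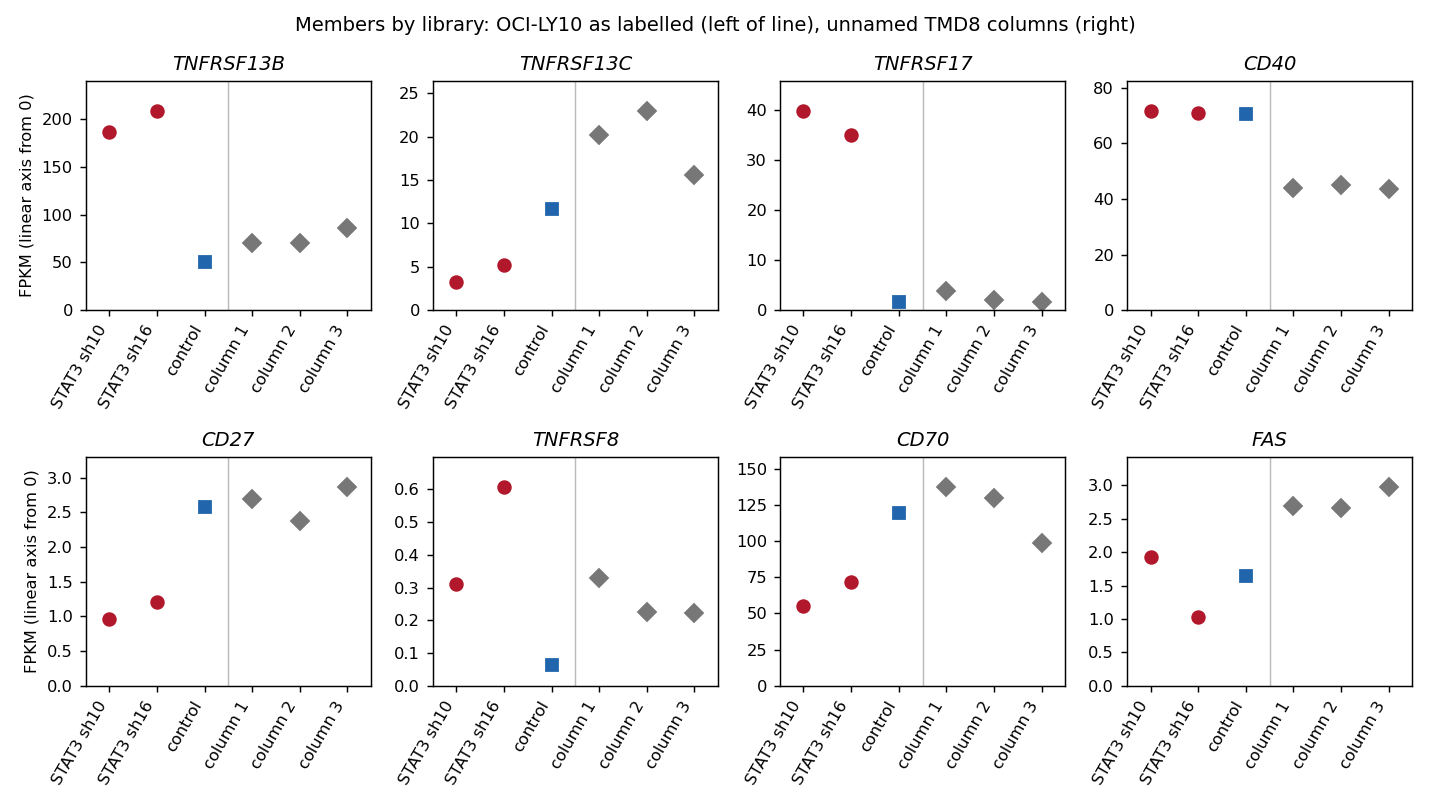
FPKM of each of the 8 members in every library, on linear axes from 0. Red circles are the OCI-LY10 STAT3 shRNA libraries, blue squares the library labelled OCI-LY10 control, and grey diamonds the unnamed TMD8 columns by position. CD40 is at 70.4 to 71.7 FPKM in all OCI-LY10 libraries, while TNFRSF17 is at 35.0 and 39.8 FPKM with the STAT3 shRNAs and at most 3.90 FPKM in the other 4 libraries.

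The receptors of BAFF and APRIL held the widest differences among the tested members on the log2(FPKM + 1) scale. TNFRSF17 stood at 39.8 FPKM under shRNA 10 and 35.0 under shRNA 16, against 1.57 in the library labelled control. Both shRNA values lay far above that 1 library. Their mean of 37.4 ± 3.40 FPKM (SD, n = 2) was 23.9 times the control value, a log2 change of 3.90 (SE 0.13, limma adjusted p = 0.00755). TNFRSF17 is the receptor known from plasma cells, yet the summed level of 7 plasma-cell markers, 3 of them at 1 FPKM or more in all 6 libraries, was 197 to 200.5 FPKM with the STAT3 shRNAs and 479 in the control. In the TMD8 columns those markers summed to 594 to 724 FPKM, and their part in the TNFRSF17 values was not tested.

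TNFRSF13B, which binds both BAFF and APRIL, was the most abundant member in the STAT3 shRNA libraries. It stood at 187 FPKM under shRNA 10 and 209 under shRNA 16, against 50.7 in the library labelled control. Each shRNA library was above the control, and the distance between them was small beside that gap. The mean of 198 ± 15.7 FPKM (SD, n = 2) was 3.90 times the control value, a log2 change of 1.94 (SE 0.12, limma adjusted p = 0.0126). Within the STAT3 shRNA libraries the level placed it above 95.8% and 96.4% of the genes of at least 1 FPKM, against 85.2% in the control.

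TNFRSF13C, the receptor specific for BAFF, lay on the other side of the control. It stood at 3.29 FPKM under shRNA 10 and 5.21 under shRNA 16, against 11.6 in the library labelled control. Both shRNA values were below the control, but they also differed from each other by 1.58-fold. The log2 change of −1.29 (SE 0.30) missed the threshold (limma adjusted p = 0.0676). It passed in 1 of 7 alternative settings, with small RNA genes left out of the fit (adjusted p = 0.0267, range over the settings 0.0267 to 0.147).

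The ratio of these 3 receptors to each other therefore differed between libraries. TNFRSF13B made up most of their summed FPKM everywhere, between 73.7% and 83.9%. TNFRSF17 made up 17.3% of the sum under shRNA 10 and 14.1% under shRNA 16, against 2.45% in the library labelled control. TNFRSF13C made up 1.43% and 2.09% with the shRNAs, against 18.2% in the control. The second most abundant receptor of the 3 was thus TNFRSF17 with the STAT3 shRNAs and TNFRSF13C in the control. In TMD8 columns 1 to 3, TNFRSF17 made up 4.14%, 2.16% and 1.66% and TNFRSF13C 21.4%, 24.1% and 15.1%, which is the order seen in the library labelled OCI-LY10 control. Shares within a library show unequal levels and do not say which of the genes changed.

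**Figure D2:**
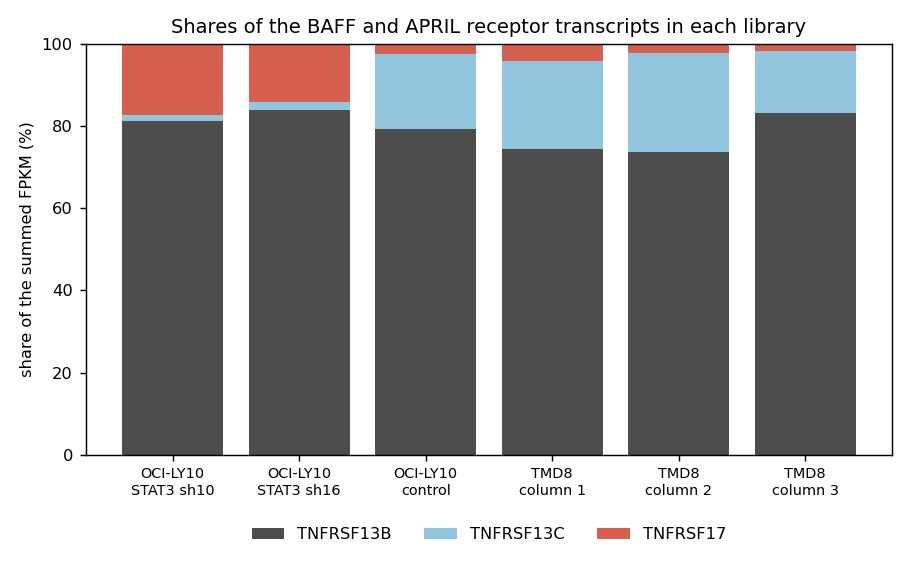
Share of TNFRSF13B, TNFRSF13C and TNFRSF17 in their summed FPKM, in percent, for each library, with 1 bar per library and no error. The TNFRSF17 share is 17.3% and 14.1% with the STAT3 shRNAs and at most 4.14% in the other 4 libraries.

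The 250 bases before the start of TNFRSF13B and of CD27, the members called in opposite directions for which RefSeq promoter sequence was at hand, are shown for the search for STAT and NF-kB motifs. The windows, in lower case and 5′ to 3′ on the gene's strand, lie at chr17:16972119-16972368 on the minus strand and at chr12:6443642-6443891 on the plus strand of GRCh38.p14, the build of the RefSeq table and not of the authors' alignment (hg19).
TNFRSF13B: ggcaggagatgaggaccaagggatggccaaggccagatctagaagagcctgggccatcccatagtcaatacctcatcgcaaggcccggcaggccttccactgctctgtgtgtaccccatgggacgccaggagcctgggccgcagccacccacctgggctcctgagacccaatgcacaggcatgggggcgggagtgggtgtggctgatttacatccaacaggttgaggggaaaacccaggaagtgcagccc
CD27: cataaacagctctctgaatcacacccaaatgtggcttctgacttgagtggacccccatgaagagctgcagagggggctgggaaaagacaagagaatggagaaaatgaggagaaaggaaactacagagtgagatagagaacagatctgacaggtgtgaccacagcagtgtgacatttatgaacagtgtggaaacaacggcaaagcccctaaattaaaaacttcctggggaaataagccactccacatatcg
Neither window held the STAT motif TTCNNNGAA or the NF-kB core GGGANNTTC on either strand, so no base is capitalised. The windows of TNFRSF8 and the 3 listed starts of FAS held neither motif. Over 34788 promoter windows of the same length, 6.57% held the STAT motif and 3.52% the NF-kB core. A window without these letters says nothing of binding by the factors. GC content was 62.0% for TNFRSF13B and 46.0% for CD27. RefSeq sequence was matched for 4 of the 8 members, and those of TNFRSF13C, TNFRSF17, CD40 and CD70 are not shown.

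Among the co-stimulatory receptors, CD27 fell in OCI-LY10 and CD40 had nearly equal values. CD40 stood at 71.7 FPKM under shRNA 10 and 71.0 under shRNA 16, against 70.4 in the library labelled control. The shRNA mean of 71.3 ± 0.50 FPKM (SD, n = 2) gave a log2 change of 0.02 (SE 0.08, limma adjusted p = 0.879). The sign of that change turned with quantile normalisation (−0.08) and with median-of-ratios scaling (−0.05).

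CD27 stood at 0.971 FPKM under shRNA 10 and 1.21 under shRNA 16, against 2.58 in the library labelled control. The shRNA mean was 42.4% of the control, a log2 change of −0.78 (SE 0.12, limma adjusted p = 0.0366). Testing every gene, with no minimum level, ended the call (limma adjusted p = 0.0834, range over 6 settings 0.0153 to 0.0834). CD27 overlaps TAPBPL and the antisense gene CD27-AS1. Use of strand in the counting is not given in the sources used here, so reads from the overlapping stretches cannot be assigned to 1 gene. TNFRSF17 overlaps NPIPB2, TNFRSF13C overlaps MIR378I, and TNFRSF8 overlaps RNU6-777P and RPL23AP89. None of these is among the listed symbols, so reads shared with them cannot be judged. CD27-AS1 was at 3.42 FPKM under shRNA 10 and 4.42 under shRNA 16, against 2.32 in the control. Its shRNA values thus lay above the control and those of CD27 below it, while both genes were higher under shRNA 16 than under shRNA 10.

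TNFRSF8 was the lowest member in every library. It stood at 0.311 FPKM under shRNA 10 and 0.608 under shRNA 16, against 0.0638 in the library labelled control. All values were below 1 FPKM, and the absolute depth is unknown, so no fold is given. The TMD8 columns held 0.330, 0.226 and 0.221 FPKM.

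CD70, the ligand of CD27 and a type II membrane protein of activated lymphocytes, was abundant in all 6 libraries. It stood at 54.9 FPKM under shRNA 10 and 72.0 under shRNA 16, against 119 in the library labelled control. Both shRNA values were below the control, with a mean of 63.5 ± 12.1 FPKM (SD, n = 2), or 53.2% of it. The log2 change of −0.91 (SE 0.22) missed the threshold (limma adjusted p = 0.0715). It passed in 1 of 7 alternative settings, with small RNA genes left out (adjusted p = 0.0290, range 0.0290 to 0.149). CD70 and CD27 had the same order of libraries in OCI-LY10, an order that TNFRSF13C also had. The ratio of CD70 to CD27 was 56.6 under shRNA 10 and 59.4 under shRNA 16, against 46.3 in the control. In the TMD8 columns the ratio was 51.1, 54.5 and 34.3.

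FAS, the death receptor, was low and its shRNA libraries lay on either side of the control. It stood at 1.93 FPKM under shRNA 10 and 1.04 under shRNA 16, against 1.64 in the library labelled control. The fitted difference on the log2 scale, −0.11 (SE 0.29), had a limma adjusted p of 0.773, and no direction can be read from it. FAS overlaps ACTA2 and the antisense gene FAS-AS1, so their reads could likewise be shared. FAS-AS1 was at 0.105 FPKM under shRNA 10, 0.0478 under shRNA 16 and 0.0917 in the control.

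**Figure D3:**
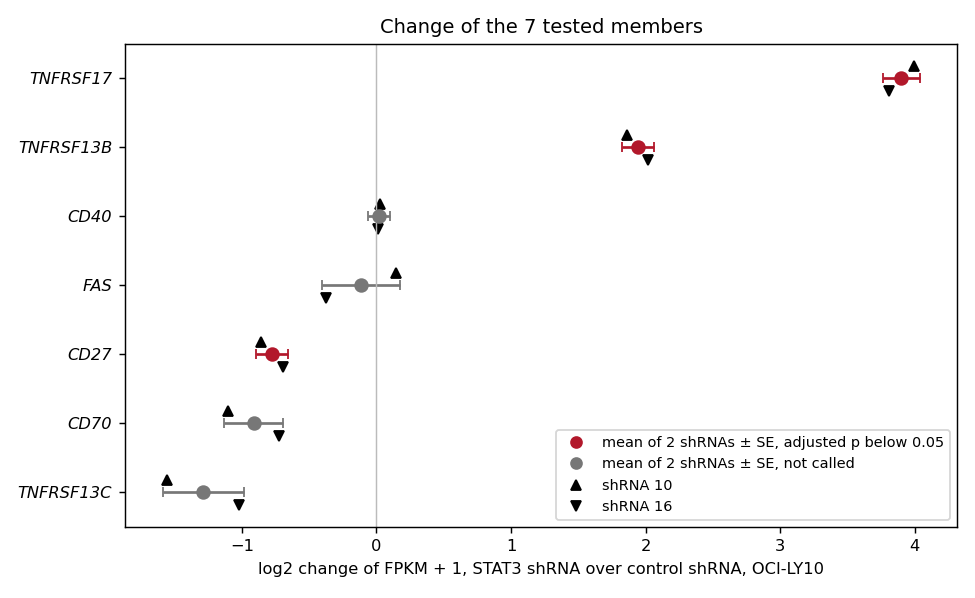
Log2 change of FPKM + 1 for the 7 tested members, STAT3 shRNA over control shRNA in OCI-LY10. Circles are the limma estimate over 2 shRNA libraries and 1 control library with its SE, red where the adjusted p was below 0.05. Triangles are shRNA 10 (up) and shRNA 16 (down), which share the control. TNFRSF17 at 3.90 and TNFRSF13B at 1.94 lie right of 0 with both shRNAs, and TNFRSF13C, CD70 and CD27 lie left of it with both.

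By fold alone, with no test, 2 members (TNFRSF13B and TNFRSF17) were at least 1.5-fold higher with both shRNAs, beside 20.1% of all tested genes. A further 3 (TNFRSF13C, CD27 and CD70) were at least 1.5-fold lower with both, beside 17.2% of tested genes. That lower count was 2 with a pseudocount of 5 FPKM and 1 (TNFRSF13C) at a threshold of 2-fold. The 2 comparisons share the control library, so nothing is read from their overlap. Between the STAT3 shRNAs, 0 of the 7 tested members differed by 1.5-fold or more on the FPKM + 1 scale, where 3.62% of tested genes did. On plain FPKM the widest gaps among the tested members were those of FAS, 1.86-fold higher under shRNA 10, and TNFRSF13C, 1.58-fold higher under shRNA 16. Each shRNA has 1 library, and these gaps have no replicate check.

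In TMD8, CD70 was the most abundant member. CD70 stood at 138, 129.5 and 98.5 FPKM in columns 1, 2 and 3, above 92.8% to 94.9% of the genes of at least 1 FPKM. TNFRSF13B followed with 70.2, 70.2 and 86.1 FPKM, and CD40 with 43.9, 45.0 and 43.5 FPKM. TNFRSF13C was at 20.2, 23.0 and 15.6 FPKM. These 4 genes kept that order in all 3 columns.

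The other members of TMD8 were low. TNFRSF17 was at 3.90, 2.06 and 1.71 FPKM, with column 1 above the others. CD27 was at 2.69, 2.38 and 2.87 FPKM and FAS at 2.69, 2.67 and 2.98 FPKM, so neither can be ranked above the other. Of the 7 members with a mean of at least 1 FPKM in TMD8, 1 (TNFRSF17) differed by 1.5-fold or more between its highest and lowest column on the FPKM + 1 scale, at 1.81. Over all 10888 such genes 11.5% did, with a median ratio of 1.21. Without column 1, 0 members reached 1.5. The ratio of TNFRSF17 lay at percentile 95.9 among all such genes, that of TNFRSF13C (1.45) at 85.0 and that of CD70 (1.39) at 81.0. TNFRSF13B lay at percentile 52.7, CD27 at 30.8, FAS at 12.75 and CD40, with a ratio of 1.03, at 2.13. The median ratio of the 7 members was 1.22, near that of all such genes. Since no column has a named shRNA, no change with STAT3 depletion was computed in TMD8.

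Between the lines, CD40 was higher in every OCI-LY10 library than in every TMD8 column, at 70.4 to 71.7 against 43.5 to 45.0 FPKM. FAS had the reverse order, at 1.04 to 1.93 FPKM in OCI-LY10 and 2.67 to 2.98 FPKM in TMD8, and so had TNFRSF13C, at 3.29 to 11.6 against 15.6 to 23.0 FPKM. The tables may have been normalised separately, so these levels were set side by side without a test. The share of all genes that separate the lines in this way was not computed, so nothing particular to these members is read from it. The library labelled OCI-LY10 control lay near the TMD8 values for some members. Its CD27 (2.58 FPKM) and CD70 (119 FPKM) were within the TMD8 range, and its TNFRSF17 (1.57 FPKM) was just below it. On the log2(FPKM + 1) scale that library was nearer to the TMD8 median than to the STAT3 shRNA mean for 6 of 8 members, and CD40 and FAS were the 2 nearer to the shRNA mean. Over 10099 genes of at least 1 FPKM on average in both tables, 59.7% were nearer to TMD8. The 6 members include TNFRSF8, which was below 1 FPKM in every library and is outside that set of genes.

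Set against TMD8, the STAT3 shRNA libraries had higher TNFRSF17 and TNFRSF13B values and lower TNFRSF13C, CD70 and CD27 values. The log2 ratio of their mean to the TMD8 median was 3.65 for TNFRSF17 and 1.48 for TNFRSF13B. It was −2.01 for TNFRSF13C, −1.02 for CD70 and −0.82 for CD27. For the library labelled control the same ratios were −0.25, −0.46, −0.75, −0.12 and −0.05. These values share the shRNA libraries with the comparison above and are no independent support for it.

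The genes whose profiles over the 6 libraries lay nearest to each member were found by the root mean square difference of centred log2(FPKM + 1) values, among 10089 genes. This scale understates changes of low genes such as CD27 and PRG2. Near profiles need not have equal folds on plain FPKM, and no other pseudocount was tried for them. PRG2 (0.125) was among the 2 nearest to TNFRSF13B. PINK1 (0.124) and CCNG2 (0.130) were nearest to TNFRSF13C, and ITGB7 (0.141) and ICAM2 (0.178) to TNFRSF17. ITGB7, an integrin chain, stood at 48.8 FPKM under shRNA 10 and 56.3 under shRNA 16, against 2.77 in the library labelled control. PMPCA (0.044) and INTS5 (0.052) were nearest to CD40, RPS6 (0.026) and ME2 (0.031) to CD27, AMPD3 (0.059) and TGFB1 (0.077) to CD70, and LARP1B (0.063) and GCLM (0.074) to FAS. Among the members themselves, CD27 and CD70 were the pair nearest in profile (0.209) and TNFRSF13C and TNFRSF17 the pair farthest apart (2.563).

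The other ligands of the receptors had low values. Of 5 others, only TNFSF13 (APRIL) was tested, at 0.863 FPKM under shRNA 10 and 1.34 under shRNA 16 against 2.91 in the library labelled control, and it did not pass (log2 change −0.91, SE 0.19, limma adjusted p = 0.0596). TNFSF13B (BAFF) was at 0.0782 and 0.261 FPKM with the shRNAs, against 0.627 in the control. CD40LG and TNFSF8, the ligands of CD40 and TNFRSF8, were at most 0.115 FPKM in any library, and FASLG was listed at 0 in all 6. A listed 0 can be an estimate that failed.

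Adaptors that carry the receptor signal were called about as often as other genes. Of 15 TRAF adaptors and regulators tested, 3 rose, 3 fell and 9 did not pass, where 20.3% of all tested genes rose and 17.4% fell, with a median log2 change of 0.21 beside 0.06 for all tested genes. Of those that rose, 1 was below 1 FPKM in the control and entered the test only through the shRNA libraries. TRAF3, which holds the alternative NF-kB pathway in check downstream of CD40 and TNFRSF13C, fell to 1.69 FPKM under shRNA 10 and 1.86 under shRNA 16, against 20.2 in the library labelled control (log2 change −2.94, limma adjusted p = 0.00773). BIRC3, a ubiquitin ligase that joins the TRAF complexes, rose to 20.5 and 25.2 FPKM, against 10.7 in the control (log2 change 1.02, adjusted p = 0.0427). SIVA1, which binds the tail of CD27, fell to 27.2 and 21.9 FPKM, against 48.9 in the control. TNFAIP3, a deubiquitinase that limits NF-kB signalling, was at 30.0 and 35.8 FPKM, against 18.1 in the control, and did not pass (adjusted p = 0.0506).

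Of the 4 genes of the alternative NF-kB pathway, 0 were called by limma in either direction and 2 had an unadjusted p below 0.05. Over all 11162 tested genes 5844 had such a p, and 20.3% were called higher and 17.4% lower, so these counts show nothing particular to the pathway. MAP3K14, the kinase that TRAF3 keeps unstable, was at 11.02 FPKM under shRNA 10 and 12.7 under shRNA 16, against 20.2 in the library labelled control (log2 change −0.72, adjusted p = 0.0502). NFKB2 was at 34.5 and 41.4 FPKM, against 59.3 in the control. RELB was at 14.8 and 16.9 FPKM against 17.1 in the control, below the 31.8 to 54.0 FPKM of TMD8. CHUK was at 16.8 and 15.2 FPKM against 19.0 in the control.

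Of 12 tested genes of FAS signalling, 2 rose and 6 fell, with a median of −0.59, beside 20.3% higher, 17.4% lower and a median of 0.06 over all tested genes. CASP10, an initiator caspase, fell to 0.620 FPKM under shRNA 10 and 0.567 under shRNA 16, against 3.61 in the library labelled control (log2 change −1.53, adjusted p = 0.0111). CASP10 averaged below 1 FPKM with the shRNAs and entered the test only through the control. FAIM3 was below 1 FPKM in the control and entered only through the shRNA libraries. The filter fixed the direction of both, and the counts and median include them, so no result about the list is read from these. FAIM, named for its inhibition of FAS-induced apoptosis, fell to 12.4 and 11.2 FPKM, against 54.5 in the control. FAIM3, an older symbol of the IgM receptor FCMR, rose to 3.63 and 5.19 FPKM, against 0.912 in the control. TRADD, a death-domain adaptor of TNF receptors, rose to 9.29 and 10.2 FPKM, against 4.43 in the control. The members that fell thus include both a caspase and an inhibitor of FAS signalling.

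Other receptors of the superfamily were mostly below the filter. Of 16, 10 were below 1 FPKM on average, and of the 6 tested 1 rose and 3 fell (median −1.34), beside 20.3% higher and 17.4% lower over all tested genes. The genes of this list that fell averaged below 1 FPKM with the shRNAs and entered the test only through the library labelled control, so they had to differ, and their count and median support nothing. TNFRSF1B, the second TNF receptor, rose to 51.03 FPKM under shRNA 10 and 57.5 under shRNA 16, against 15.2 in the library labelled control (log2 change 1.76, adjusted p = 0.0144). TNFRSF11A (RANK) was at 0.0137 and 0.0187 FPKM, against 3.63 in the control (log2 change −2.19, adjusted p = 0.0075). TNFRSF25 was at 0.105 and 0.194 FPKM, against 6.16 in the control, and also passed, again by way of the control value (adjusted p = 0.00773). TNFRSF14, at 3.42 and 4.85 FPKM against 2.61, did not pass.

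Genes that CD40 ligation is known to induce in B cells included 7 that fell and 1 that rose of 10 tested (median −1.76), beside 17.4% lower, 20.3% higher and a median of 0.06 over all tested genes. Of those that fell, 2 (CD86 among them) entered the test only through the control, and FCER2 entered only through the shRNA libraries. The filter fixed the direction of such genes. The counts and median include them, so no result about the list is read from these. CD86, a co-stimulatory ligand, fell to 0.477 FPKM under shRNA 10 and 0.563 under shRNA 16, against 47.9 in the library labelled control (log2 change −5.01, adjusted p = 0.00676). CCL22, a T-cell attractant, fell to 1.87 and 1.62 FPKM, against 43.3. FCER2 (CD23) rose to 17.3 and 20.9 FPKM, against 0.197 in the control (log2 change 4.06, adjusted p = 0.00879), and was at 0.0399 FPKM or listed at 0 in the TMD8 columns. CCR7, at 57.9 and 82.7 FPKM against 48.9, did not pass. In the TMD8 columns CD86 was at 57.2 to 61.7 FPKM, TNFRSF11A at 2.14 to 2.72 FPKM and CASP10 at 4.30 to 4.77 FPKM.

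**Figure D4:**
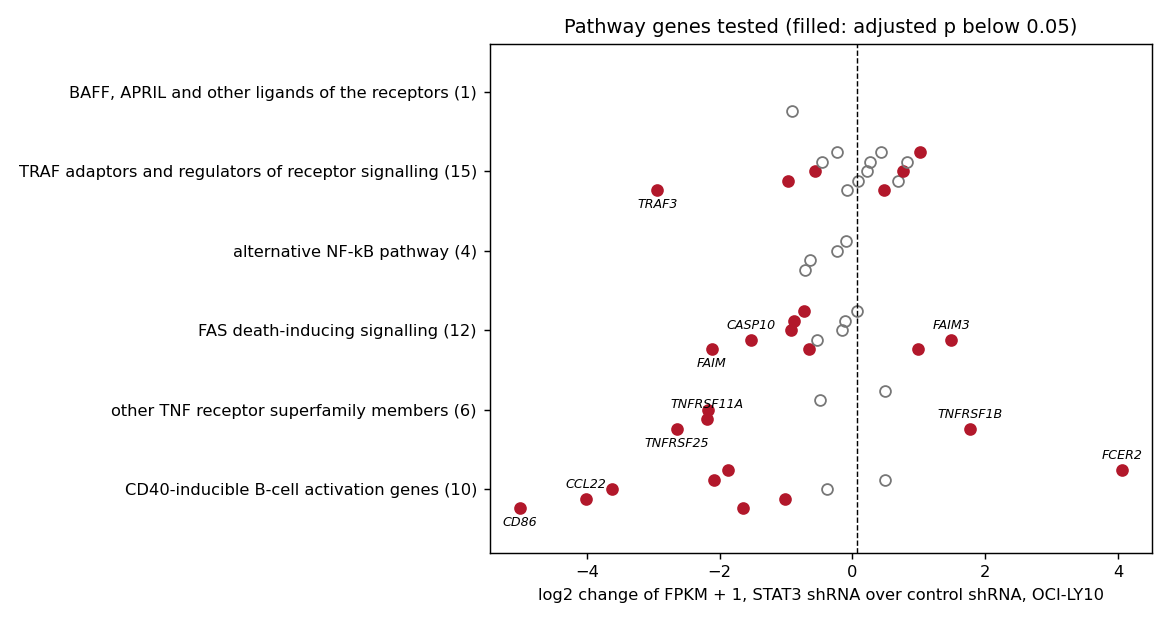
Log2 change of FPKM + 1, STAT3 shRNA over control shRNA in OCI-LY10, for the tested genes of 6 lists, with the number tested in brackets. Each point is 1 gene (n = 2 shRNA libraries and 1 control library), filled where limma's adjusted p was below 0.05, and the dashed line is the median of all tested genes, 0.06. The vertical offset within a list carries no value. The named genes run from CD86 at −5.01 to FCER2 at 4.06.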

How the data were processed

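RNA-seq of OCI-LY10 and TMD8 (3 libraries each) was used. The authors deposited FPKM values, 1 per gene and library. TopHat, Bowtie2 and hg19 appear in the data processing field, per the submitters' processing notes, with no version or role. Per the labels' protocols, an Illumina TruSeq kit was used for the RNA. The tool that computed FPKM, its annotation, scaling and strand use have no entry and were not given in the sources used here. Each table has 25277 rows and 25275 symbols, and repeated symbols were summed. OCI-LY10 columns were matched by name. The TMD8 table has no header, and its 3 columns were taken as the TMD8 group because the samples' descriptions name that table. FPKM gives no read total, so absolute depth is unknown. From the commonest ratio of values under 0.1 FPKM, depth relative to shRNA 10 was 0.731 for shRNA 16 and 1.52 for the control.

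The 11162 genes averaging 1 FPKM or more in OCI-LY10 were tested with limma 3.58.1 in R 4.3.3 on log2(FPKM + 1), with a mean-variance trend, two-sided, with Benjamini-Hochberg adjustment at 0.05. The fit had 1 residual and 1.64 prior degrees of freedom. It was also run on simulated data in which the control varied as the shRNA libraries do. That run could not test the assumption made about the control. Fold changes on this scale understate changes of low genes. Labels do not say whether libraries came from separate cultures. Alternatives were pseudocounts of 0.1 and 5 FPKM, no filter, a filter at 5 FPKM, quantile normalisation, median-of-ratios scaling, small RNA genes left out, a fold of 2, and each shRNA or column left out.

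The members, lists and rules were chosen with earlier results of these data known. Named genes were all members, STAT3, the 2 highest and 2 lowest log2 changes among tested genes of each list, and the 2 nearest profiles per member (small RNA and HLA genes left out). One nearest-profile gene and one B-cell marker are not reported here. Python 3.11.15 was used for descriptions. IGJ and FAIM3 are older symbols of JCHAIN and FCMR.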

Additional observations from a re-analysis of the deposited data

How the results depend on the processing

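TNFRSF13B and TNFRSF17 were called higher in all 7 alternative fits, with log2 changes of 1.86 to 1.96 and 2.69 to 4.49, so 2 members were called higher in each. The number called lower was 1 except for 0 without the filter on low values and 0 with a mean of at least 5 FPKM (where CD27 was not tested), and 3 with small RNA genes left out (CD27, TNFRSF13C and CD70). With limma, STAT3 lost its call at the 0.1 FPKM pseudocount (adjusted p = 0.0508) and when no filter was used (0.0688). CD40 turned to −0.0765 with quantile normalisation and −0.0465 with median-of-ratios scaling. Over all genes, 1299 were higher without the filter, against 2263, and 1178 lower with a mean of at least 5 FPKM, against 1943. At least 1.5-fold higher with both shRNAs were 1424 genes with a pseudocount of 5 FPKM, against 2248. At 2-fold, 1180 were higher and 1131 lower, against 1920 lower at 1.5-fold. The causes were not tested. Members spread 1.5-fold or more in TMD8 numbered 0 to 1 when each column was left out. Members with a higher median in OCI-LY10 than in TMD8 numbered 4, also under the scaling over all libraries, the other pseudocount and without the control. For all 4 (TNFRSF13B, TNFRSF17, TNFRSF8 and CD40) that median is a shRNA library's value and the control is the lowest library. Leaving out the control could therefore not lower it. The library labelled control was itself below the TMD8 median for TNFRSF13B, TNFRSF17 and TNFRSF8 (log2 ratio −0.46, −0.25 and −0.21) and above it for CD40 (0.67). The share of all genes with a higher OCI-LY10 median was not computed. Leaving out 1 shRNA leaves 1 library against 1 and no test, so counts of calls have no such value. In the limma comparison the 1 control library could not be left out. No paired analysis was possible because the control has 1 library and shRNA numbers pair no samples.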

Other observations

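Further genes of the TNF system cannot be read from these tables. TNF, LTA and LTB, which lie together in the major histocompatibility complex, were listed at 0 FPKM in all 6 libraries, and so was LTBR, the receptor of the lymphotoxin that LTA and LTB form. These zeros are given as listed and are not read as absence. LTB was looked up after other values had been seen.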
